A study of Mus musculus with 6 samples.

Results

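The 2 mature arms of miR-151, miR-151-3p and miR-151-5p, were examined in small RNA libraries of adult mouse whole brain from 3 wild-type and 3 Adar2-/- animals. They were taken by name from the deposited tables and are 2 of the 1055 mature miRNAs listed. All animals were female siblings of strain 129SV aged 5.5 months. Both genotypes were homozygous for the pre-edited Gria2 allele (R/R), which rescues mice without ADAR2 from early death, so the controls carried it too. The knockout was constitutive and not restricted to a cell type. Each library was made from RNA of 19 to 25 nucleotides of 1 whole brain, in which fewer cells of a type and less RNA per cell cannot be told apart.

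ADAR enzymes can turn adenosine into inosine in double-stranded RNA, and the hairpins of miRNA precursors are among their substrates. Dicer cuts the hairpin near its loop and releases a duplex of a 5p and a 3p arm, of which one is usually kept by an Argonaute protein while the other is degraded. The miR-151 precursor is a known target of ADARs, and editing close to the cleavage site is known to hinder Dicer. ADAR1 remained present in the Adar2-/- animals. The abundance of both arms and the ratio between them were therefore compared between the genotypes. Editing itself was not measured here, since the counts hold edited and unedited reads of an arm together.

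On NCBIM37 the 68-nt Mir151 hairpin was annotated on the minus strand at chr15:73085245-73085312. It lay inside Ptk2, the gene of focal adhesion kinase (chr15:73035535-73253621, minus strand), in the intron chr15:73072908-73087463, and overlapped an exon in none of the 6 annotated Ptk2 transcripts. Both arms are cut from this 1 hairpin. Ptk2 mRNA was not analysed here.

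miR-28 and miR-708 belong to the same family of hairpins, thought to derive from LINE-2 elements, and served as the closest comparison. Their mature sequences from RefSeq are shown because the arms of these hairpins are set beside those of miR-151 in the following. The tables list them as miR-28 and miR-708 for the 5p arm and with a star for the 3p arm. RefSeq names the first miR-28a. All 4 names were matched, but neither arm of miR-151 was found among the RefSeq sequences used, so its seeds are not shown. Capitals mark the seed, bases 2 to 8, with which a miRNA recognizes its targets. The 5p arms share the seed AGGAGCU, whereas the seeds of the 3p arms are ACUAGAU and AACUAGA.
miR-28: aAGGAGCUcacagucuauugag
miR-708: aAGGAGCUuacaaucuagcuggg
miR-28*: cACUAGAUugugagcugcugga
miR-708*: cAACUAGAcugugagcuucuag
On GRCm38.p6 these 4 arms lie on the plus strand at chr16:24827868-24827889 (miR-28), chr7:96249450-96249472 (miR-708), chr16:24827908-24827929 (miR-28*) and chr7:96249496-96249517 (miR-708*).

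The libraries held 12449633 to 23935544 mapped miRNA reads, and wild-type replicate 1 was the shallowest. Across the 399 miRNAs that reached 100 reads in each of the libraries, Pearson's r of the log2 abundance between libraries was 0.954 to 0.984 within a genotype and 0.949 to 0.985 between genotypes. Of the miRNAs used to check the tissue, neural miR-9 stood at 99104 to 151020, miR-124 at 7203 to 25453 and miR-128 at 386 to 1319 reads per 1000000 mapped miRNA reads of the library (RPM). Liver-specific miR-122 stood at 3.95 to 7.23 RPM. The muscle miRNAs miR-1 and miR-133a stood at 970 to 1755 and 47.6 to 273 RPM, with mean levels of 1309 RPM in wild type and 1558 RPM in Adar2-/- for miR-1 and of 126 and 118 RPM for miR-133a. The part of muscle RNA in the miR-151 values was not tested. The genotype labels were not checked, because no Adar2 mRNA values were used.

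miR-151-3p was the dominant arm and among the abundant brain miRNAs, and its mean level was lower in Adar2-/- brains. The wild-type libraries, in the order of replicates 1 to 3, held 123925, 169582 and 275480 reads of it, which are 9954, 7445 and 11737 RPM. The Adar2-/- libraries held 124013, 183570 and 160799 reads, which are 6651, 7783 and 6718 RPM. Wild-type replicates 1 and 3 lay above all other libraries. Wild-type replicate 2 fell between Adar2-/- replicates 2 and 3, so the genotypes overlapped in RPM, which is scaled by total mapped miRNA reads. The 95% Wilson interval of each level reached at most 0.555% of the value to either side. PCR reads are not independent molecules, and this interval covers counting error only. The intervals of the wild-type libraries did not overlap each other, while those of Adar2-/- replicates 1 and 3 did.

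Wild-type brains had a mean of 9712 ± 2156 RPM of miR-151-3p (SD, n = 3). Adar2-/- brains had a mean of 7051 ± 635 RPM (SD, n = 3), which is 0.726 of the wild-type mean. This difference was larger than the SD of either genotype but did not pass the exact permutation test (two-sided, p = 0.2). With 3 against 3 libraries this test cannot give a p below 0.1. In the fit over all 399 miRNAs with edgeR's quasi-likelihood test the log2 fold change was -0.46 (standard error 0.311, 95% interval -1.15 to 0.23, adjusted p = 0.988 after Benjamini-Hochberg). The interval covers a decrease as well as a small increase. Of all 399 miRNAs, 52 (13.0%) had a mean RPM lower by at least 1.3-fold in Adar2-/-, as miR-151-3p did, and 130 (32.6%) differed by that much in either direction.

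miR-151-5p, the minor arm, had a higher mean level in Adar2-/- brains. The wild-type libraries held 3326, 8461 and 10833 reads of it in the same order, which are 267, 371 and 462 RPM. The Adar2-/- libraries held 5453, 12171 and 12676 reads, which are 292, 516 and 530 RPM. Adar2-/- replicates 2 and 3 held the highest levels, but Adar2-/- replicate 1 lay below 2 of the 3 wild-type libraries. In both genotypes the lowest level was found in replicate 1. The Wilson intervals reached at most 3.399% of the value to either side, owing to the lower number of reads.

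The mean level of miR-151-5p amounted to 367 ± 97.3 RPM in wild-type and 446 ± 133 RPM in Adar2-/- brains (SD, n = 3 each). Adar2-/- thus stood at 1.22 of wild type (exact permutation test, two-sided, p = 0.5). The log2 fold change from edgeR was 0.28 (standard error 0.364, 95% interval -0.53 to 1.09, adjusted p = 0.988). Of the 2 arms, 0 passed the threshold of 0.05 in edgeR, as did 0 of the 399 miRNAs (0.0%). The unadjusted p was under 0.05 for 13 of the 399 (3.26%), neither arm among them. DESeq2 called 1 of the 399 (0.251%), which was miR-497*, and gave adjusted p-values of 0.599 for miR-151-3p and 0.925 for miR-151-5p.

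**Figure D1:**
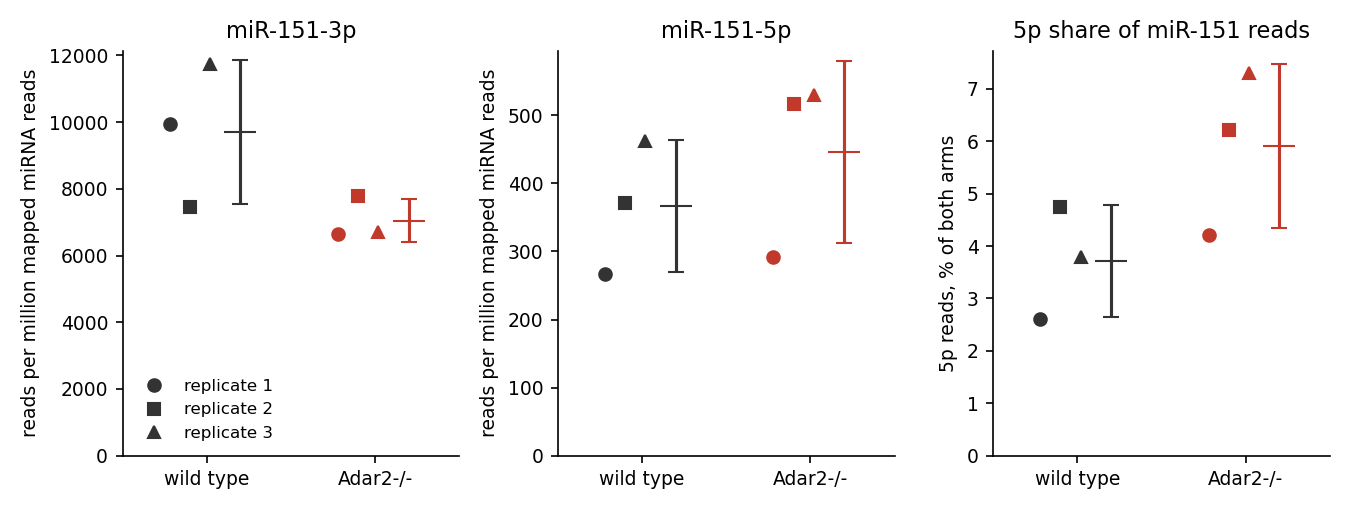
Levels of miR-151-3p and miR-151-5p in RPM, and the 5p reads in percent of both arms, in each library of wild-type (black) and Adar2-/- (red) brain. Symbols are replicate numbers, and bars show the mean and SD of 3 libraries. The 3p arm ranged from 6651 to 11737 RPM and the 5p arm from 267 to 530 RPM, and the genotypes overlapped in all 3 panels.

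The level in Adar2-/- was also divided by that in the wild-type library deposited in the same table. For miR-151-3p this gave 0.668, 1.05 and 0.572 for replicates 1 to 3. For miR-151-5p it gave 1.09, 1.39 and 1.15, above 1 each time. Of the 399 miRNAs, 64 (16.0%) kept 1 direction throughout, 36 (9.02%) with higher and 28 (7.02%) with lower values in Adar2-/-. The direction in single replicates depended on the scaling, and the overlap of the genotypes in the levels was described for RPM only. With TMM factors miR-151-3p was lower in each replicate (0.848, 0.891 and 0.534), and it also was when totals excluded the 5 most abundant miRNAs (0.768, 0.915 and 0.497), while miR-151-5p then stood at 0.996 in replicate 3.

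The plot of fold changes against abundance shows both arms within the cloud of the other miRNAs. miR-151-3p ranked 19 to 27 of the 1055 miRNAs in the single libraries, and 22 by its mean of 8381 ± 2036 RPM (SD, n = 6). miR-135a stood next above it at 9893 ± 1532 RPM and miR-24 next below at 8369 ± 2448 RPM. miR-151-5p ranked 111 to 138, and 121 by its mean of 406 ± 113 RPM (SD, n = 6), between miR-384-3p at 422 ± 55.7 RPM and miR-30b at 385 ± 114 RPM. For either arm the difference from these neighbours was smaller than the SD between libraries. The highest library held 1.76 times the lowest level for the 3p arm and 1.98 times for the 5p arm. The coefficient of variation over all 6 libraries was 24.3% for the 3p arm and 27.8% for the 5p arm, below the median of 30.4% over the 399 miRNAs.

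**Figure D2:**
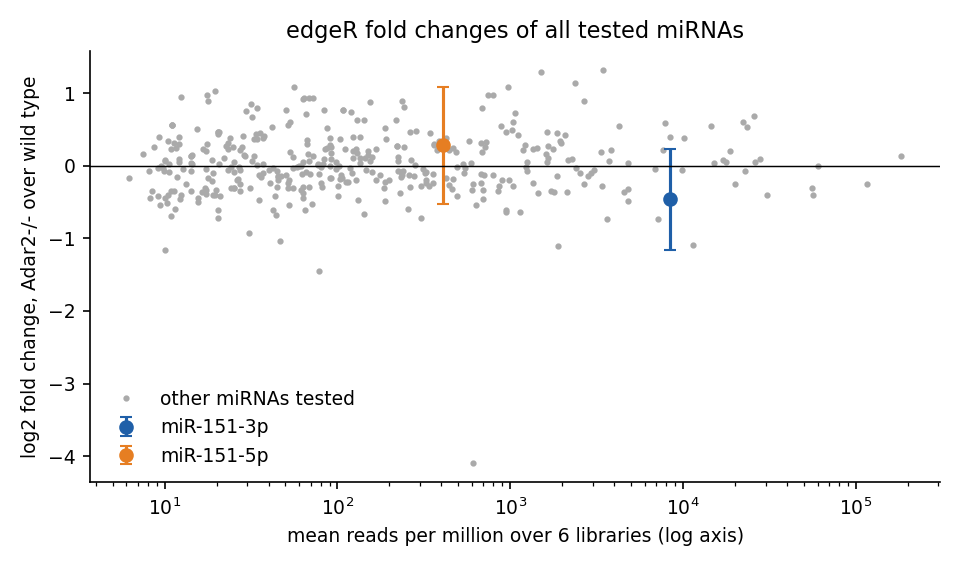
The edgeR log2 fold change of Adar2-/- over wild type (vertical axis) against the mean RPM over 6 libraries (horizontal log axis) for the 399 miRNAs tested. miR-151-3p (blue, -0.46) and miR-151-5p (orange, 0.28) carry their 95% intervals, and both intervals include 0.

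The ratio of the arms within a library does not depend on the depth of that library, and its mean was lower in Adar2-/- brains. In replicate order, the wild-type libraries held 37.3, 20.0 and 25.4 reads of miR-151-3p per read of miR-151-5p. The Adar2-/- libraries held 22.7, 15.1 and 12.7. Adar2-/- replicates 2 and 3 lay below every wild-type library, while Adar2-/- replicate 1 lay above wild-type replicate 2, so that the genotypes overlapped through these 2 libraries.

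Expressed as a share of the reads on both arms, miR-151-5p took 2.61% (95% Wilson interval 2.53% to 2.70%), 4.75% (4.65% to 4.85%) and 3.78% (3.71% to 3.85%) in the wild-type libraries. In the Adar2-/- libraries it took 4.21% (4.10% to 4.32%), 6.22% (6.11% to 6.33%) and 7.31% (7.19% to 7.43%). The mean share of the 5p arm was 3.72% ± 1.07 for wild-type and 5.91% ± 1.57 for Adar2-/- brains (SD, n = 3 each; exact permutation test, two-sided, p = 0.2). The 3p arm thus held the larger share in every library.

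On the log2 scale the ratio of 3p to 5p reads was 5.22, 4.33 and 4.67 for the wild-type libraries, a mean of 4.74 ± 0.45 (SD, n = 3). It was 4.51, 3.91 and 3.67 for the Adar2-/- libraries, a mean of 4.03 ± 0.43 (SD, n = 3). The difference of -0.71 was larger than the SD of either genotype but did not pass the exact permutation test (two-sided, p = 0.2). Within replicate numbers 1 to 3 the differences were -0.71, -0.41 and -1.003, all towards the 5p arm.

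To borrow the spread from other hairpins, the arm ratio was also fitted with limma over the 102 hairpins with 100 reads or more on both arms in each library, as 3p over 5p or, where the tables mark 1 arm with a star, as star over guide. For miR-151 the difference was again -0.71 (standard error 0.409, 95% interval -1.63 to 0.21), with an unadjusted p of 0.116 and an adjusted p of 0.781 in limma. In this fit 0 of the 102 hairpins (0.0%) were called at 0.05, and the unadjusted p was under 0.05 for 4 (3.92%). An arm ratio lower in Adar2-/- in all 3 replicate numbers was seen in 17 hairpins (16.7%), miR-151 among them, and 26 hairpins (25.5%) kept 1 direction. For a hairpin read as star over guide, a lower ratio is a shift towards the guide. For miR-151 it is a shift away from its dominant arm. Among the 29 hairpins listed as 5p and 3p, 2 (6.9%) were lower in all 3, of which miR-151 was 1. In 10 of the 102 hairpins (9.8%) the genotypes did not overlap at all, which was not so for miR-151.

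The difference of miR-151 was in size the 20th of the 102, whose median size was 0.40. The difference was below 0 in 69 of them (67.6%), with a median of -0.25, which for star over guide is towards the guide. Among the 29 hairpins listed as 5p and 3p, miR-335 (-1.02) and miR-540 (-0.98) had differences more negative than that of miR-151 (adjusted p = 0.781 in limma for each). Both were picked out after their values were seen, and both hairpins have a 5p arm in the study's table of edited and changed miRNAs. Opposite signs of the edgeR fold changes of the 2 arms, as in miR-151, were found in 55 hairpins (53.9%).

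**Figure D3:**
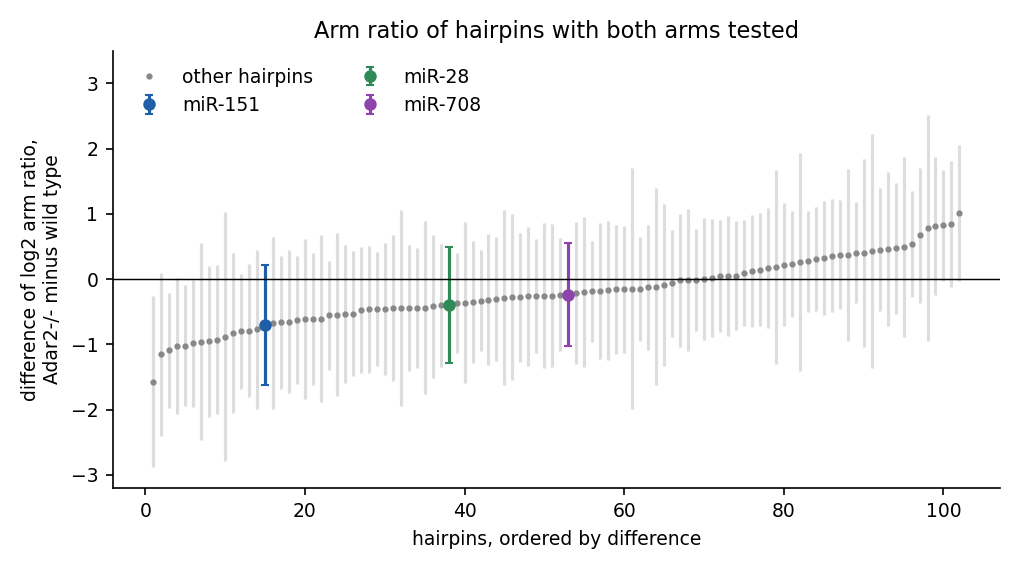
Difference of the log2 arm ratio between Adar2-/- and wild type for 102 hairpins ordered from the lowest to the highest difference, with 95% intervals from limma. miR-151 (blue) lies at -0.71, miR-28 (green) at -0.39 and miR-708 (purple) at -0.24. The 95% intervals of all 3 include 0.

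The relatives lacked the strong preference of miR-151 for the 3p arm. The mean difference between genotypes was negative in all 3 hairpins, as in 69 of the 102 (67.6%), without passing the test in any. The 102 mix 3p over 5p with star over guide, so their share is no direct background for a lower ratio of 3p to 5p. In miR-28 the arms were nearly balanced, with a log2 ratio of 3p to 5p reads of 0.45, -0.14 and -0.25 for the wild-type and 0.11, -0.60 and -0.63 for the Adar2-/- libraries. The means were 0.02 ± 0.38 and -0.37 ± 0.42 (SD, n = 3 each), a difference of -0.39 (95% interval -1.29 to 0.50, adjusted p = 0.781 in limma). The ratio of miR-28 was lower in Adar2-/- in all 3 replicate numbers, as it was for miR-151.

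In miR-708 the 5p arm prevailed, with log2 ratios of -1.07, -1.49 and -0.94 in wild type and -1.44, -1.40 and -1.38 in Adar2-/-. The means were -1.17 ± 0.29 and -1.40 ± 0.03 (SD, n = 3 each), a difference of -0.24 (95% interval -1.03 to 0.55, adjusted p = 0.822 in limma). Here replicate number 2 went the other way, by 0.09. In the plot of arm ratios within each library the values of the 3 hairpins do not overlap with each other, whereas the genotypes overlap within each hairpin. Whether the shift differs between miR-151 and its relatives was not tested.

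**Figure D4:**
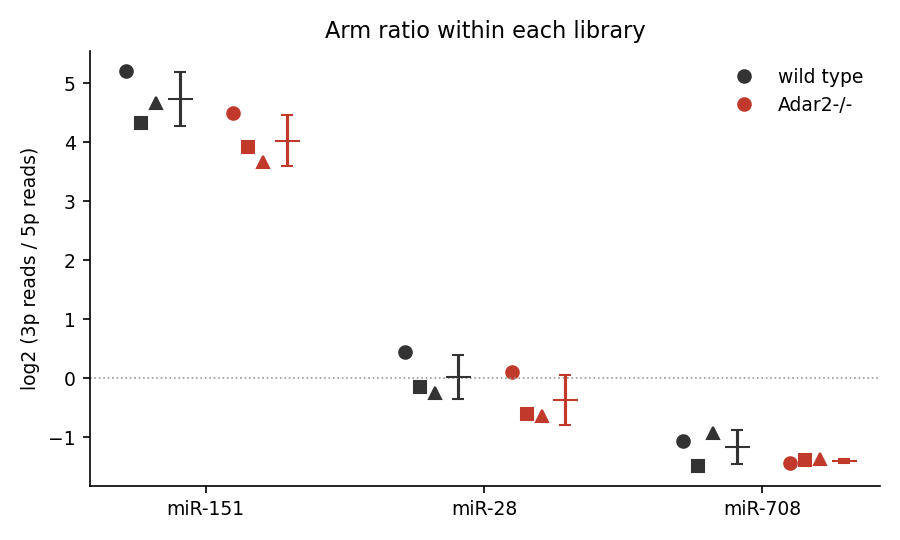
The log2 ratio of 3p to 5p reads of the miR-151, miR-28 and miR-708 hairpins in each library of wild-type (black) and Adar2-/- (red) brain, with circles, squares and triangles for replicates 1 to 3 and bars for the mean and SD of 3 libraries. The mean in wild type was 4.74 for miR-151, 0.02 for miR-28 and -1.17 for miR-708.

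None of the 4 arms of the relatives passed the test in abundance. Mean levels in wild type and Adar2-/- were 348 ± 67.3 and 406 ± 155 RPM for miR-28, 352 ± 63.7 and 300 ± 55.1 RPM for miR-28*, 1524 ± 217 and 1709 ± 200 RPM for miR-708 and 700 ± 222 and 647 ± 76.8 RPM for miR-708* (SD, n = 3 each). In edgeR 0 of the 4 were called, and the unadjusted p was under 0.05 for 0 of them. The log2 fold changes ran from -0.23 for miR-28* to 0.22 for miR-28, positive for both 5p arms and negative for both 3p arms, with a median of 0.03 against 0.0023 over the 399 miRNAs. The direction in miR-151 was the same, with 5p above and 3p below 0. Opposite signs of the 2 arms, in either direction, were found in 55 of the 102 hairpins (53.9%). How many had the 5p arm above and the 3p arm below 0 was not counted. The 3p arm is the star arm in both relatives but the dominant arm in miR-151.

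A further list holds the 6 miRNAs that the study names together with miR-151-3p for editing that was higher in Adar2-/- than in wild-type brain. The study chose it on these same samples. Of these, 5 were tested, while miR-3061-3p had only 99 reads in its lowest library (means of 8.48 RPM in wild type and 7.48 RPM in Adar2-/-). In edgeR 0 of the 5 passed and 1, miR-467d*, had an unadjusted p under 0.05, with levels of 49.7 ± 15.0 and 95.6 ± 29.3 RPM (SD, n = 3 each). Over all 399 miRNAs 13 (3.26%) had such a p. The log2 fold change was positive for miR-467d* (0.94), let-7e (0.90) and miR-376b (0.77), and negative for miR-381 (-0.10) and miR-219-3p (-0.19). Over all 399 it was positive for 201 (50.4%) and negative for 198 (49.6%). The value of -0.46 for miR-151-3p was thus below all 5.

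The study's table of miRNAs that are both edited and changed holds miR-151-3p and 14 others, again chosen on these samples. It lists them as consistently up or down by at least 1.3-fold. For miR-151-3p the RPM ratio of Adar2-/- to wild type was 0.668, 1.05 and 0.572 in replicates 1 to 3, so replicate 2 was not lower in RPM. With TMM factors it was lower in each replicate. All 14 were tested and 0 passed in edgeR, while 5 had an unadjusted p under 0.05, against 13 of all 399 (3.26%). The log2 fold change was positive for 11 and negative for 3, with a median of 0.69, against 201 (50.4%) and 198 (49.6%) with a median of 0.0023 over all 399. As the study picked these 14 for their change, their counts are a description only. miR-151-3p was the most abundant miRNA of the table and stood with miR-497* (-1.45), miR-376a* (-0.72) and miR-99b* (-0.49) on the negative side. Among these, the genotypes did not overlap in RPM for miR-497* and miR-99b*, as was found for 23 of the 399 miRNAs (5.76%). They overlapped in RPM for miR-376a* and miR-151-3p.

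Over the 6 libraries Pearson's r between the log2 RPM of the 2 arms was -0.07, as a description of libraries that also differ in depth and genotype. The patterns over the libraries most like that of miR-151-3p among the other 398 miRNAs were found for miR-1843-5p (r = 0.962), miR-30b* (r = 0.960) and miR-106b* (r = 0.943). The patterns most like that of miR-151-5p were found for miR-146b (r = 0.994), miR-362-3p (r = 0.991) and miR-338-3p (r = 0.960). None of these 6 was shared between the arms. Their levels can differ widely, as for miR-30b* with a mean of 30.8 RPM. As the highest of 398 values from 6 libraries, these r are high through selection and are a description only. The median r with all other miRNAs was 0.10 for the 3p arm and 0.32 for the 5p arm.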

How the data were processed

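Small RNA of 19 to 25 nucleotides from 3 wild-type and 3 Adar2-/- mouse brains was sequenced. The authors removed adaptors with Cutadapt and mapped reads with NextGenMap to mature miRNAs of miRBase release 16 at an identity of at least 90%, so that edited reads of an arm were counted with unedited ones. Hits to the reverse strand were discarded and reads with several equally good hits were weighted. The authors deposited whole-number counts without normalization in 3 tables of 1 wild-type and 1 Adar2-/- library each. How weights became whole numbers is not given in the sources used here. Columns were assigned by genotype and replicate number, and 12 blank lines were dropped.

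The 399 miRNAs that reached 100 reads in each library had their counts tested with edgeR 4.0.16 (glmQLFit, glmQLFTest, R 4.3.3) with total mapped miRNA reads as library size and no scaling factor or block. The standard error is the log2 fold change divided by the root of F. Arm ratios were fitted with limma 3.58.1 on log2 ratios after adding 0.5 reads. P-values were adjusted by Benjamini and Hochberg's method and called at 0.05. For single values the exact permutation test of scipy 1.17.1 was used, two-sided. Alternatives tried were DESeq2 1.42.0, TMM factors, library totals that exclude the 5 most abundant miRNAs, other minimum counts, another pseudocount, a replicate block and leaving out libraries. The edgeR, DESeq2 and limma fits were tested on simulated data.

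The Mir151 location is from the annotation on NCBIM37 (mm9, the build in the labels), and miRNA sequences are from RefSeq on GRCm38.p6. The named miRNAs are both arms, the listed arms of miR-28 and miR-708, 2 lists from the study, the neighbours in mean RPM and, for each arm, the 3 miRNAs with the highest Pearson's r. The members and lists were chosen with earlier results of these data known. The libraries held a total of 12449633 to 23935544 reads, and the counting error of an arm follows from the reads of that arm.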

Additional observations from a re-analysis of the deposited data

How the results depend on the processing

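The log2 fold change of miR-151-3p stayed below 0 under all 16 alternatives, from -0.70 without replicate 2 to -0.27 without replicate 3, and that of miR-151-5p stayed above 0, from 0.10 without wild-type replicate 1 to 0.51 without Adar2-/- replicate 1. Neither passed the threshold under any of them, with adjusted p from 0.513 to 0.998 for 3p and 0.564 to 0.999 for 5p. The log2 arm ratio difference ran from -0.95 to -0.47 in the limma fits and in the single comparison, and the sum of both arms (log2 difference -0.41) from -0.65 to -0.24. The count of miRNAs called was 1 with DESeq2 and 0 to 18 with libraries left out, and that of hairpins 0 to 24, the highest each time without replicate 1. The count of miRNAs with 1 direction in all 3 replicate numbers (64) was 98 with TMM factors, 112 with a minimum of 10 reads, 89 without the 5 most abundant miRNAs in the totals, and 99 to 249 with a replicate left out, where only 2 comparisons have to match. The cause of the other shifts was not tested. Over the 399 miRNAs, deviations from the genotype mean correlated at -0.0010, -0.08 and -0.01 between same-numbered libraries. Such a pooled value cannot exclude that replicate numbers pair the libraries for single miRNAs. The log2 arm ratio of miR-151 was highest in replicate 1 in both genotypes (5.22 in wild type, 4.51 in Adar2-/-). With a replicate block the log2 fold changes were -0.44 for miR-151-3p and 0.27 for miR-151-5p. The arm ratio difference stayed at -0.71, with a standard error of 0.312 instead of 0.409 in limma. The sum of both arms stayed at -0.41, and the block changed no call. With 3 brains per genotype the 95% intervals, not the read depth, limit these comparisons.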
